A study of Mus musculus with 8 samples.

Results

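Blood vessel endothelial cells were followed in the limbus and the cornea through 10 marker genes: Pecam1, Cdh5, Kdr, Flt1, Tek, Tie1, Plvap, Vwf, Emcn and Egfl7. A gene counted as a member when the gene column of the deposited table held exactly that symbol. All 10 were present, each in 1 row, among 23420 rows that name a gene. The tissue came from wild-type C57BL/6J mice that were 8 weeks old, and both tissues share that genotype, strain and age. The limbal rim, the ring between the clear cornea and the conjunctiva, and the corneal button, the cornea inside that ring, were cut apart under a microscope and pooled by tissue before RNA extraction. Although 4 numbered samples are labelled for each tissue, in the manner of sequencing lanes, the steps of the deposited means are those of 2 libraries. From this it was inferred, and nothing in the labels states, that the table holds 1 library of corneas and 1 of limbal rims.

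Endothelial cells line every blood vessel. They hold together through cadherin junctions, take growth signals through receptor tyrosine kinases for VEGF and the angiopoietins, and carry surface and secreted proteins that control leakage, clotting and the entry of leukocytes. The healthy cornea is known as a tissue without blood vessels, and the limbus is known for the vascular arcade that ends at the corneal edge. The cornea has an endothelium of its own on its inner face, a pump layer that is not vascular and shares only the name.

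For each gene the table gives a mean of normalized reads over both libraries, beside the authors' own comparison. The reads of each library were worked back from that mean, and since the mean of each of the 10 genes allowed several read pairs, the deposited fold change and its standard error chose among them. On named genes, 26112165 reads were worked back for the cornea and 21174681 for the limbus. With 1 library per tissue there was no replicate check and no test was possible, so every difference given is between these libraries. Intervals are exact 95% intervals for counting error only, and because the reads were amplified by PCR and carry no molecular identifiers in the table, they are narrower than the full error. A log2 ratio is positive where the limbus was higher. In pooled tissue, fewer endothelial cells and less RNA per endothelial cell cannot be told apart.

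Each of the 10 genes lay above its corneal level in the limbus by more than counting error, and 9 of the 10 were at least 2-fold higher, the exception being Kdr. Of the 15572 genes with a ratio, 35.5% did so, 36.7% differed by more than counting error the other way, and 21.7% were at least 2-fold higher in limbus. Across the 10 genes the log2 ratios had a median of 6.45, with the corneal reads of Flt1 set to 3, against 0.01 over all genes with a ratio. At most 3 corneal reads were found for 5 of the 10 genes, namely Cdh5, Flt1, Tek, Plvap and Emcn, while 9.11% of all genes had so few in the cornea and more than 3 in the limbus. Added together, the 10 genes took 256 corneal and 4616 limbal reads. That is 9.80 and 218 reads per 1000000 reads on named genes of the respective library.

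**Figure D1:**
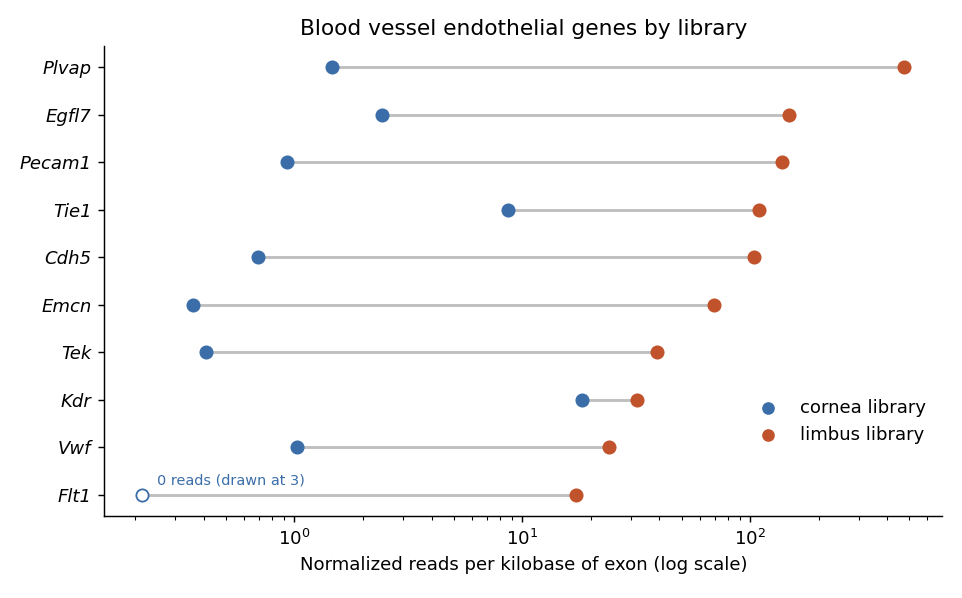
Level of each of the 10 genes in the cornea library (blue) and the limbus library (orange), as normalized reads per kilobase of exon on a log scale, 1 point per library with no error bar. The orange points lie to the right for every gene, from 17.2 for Flt1 to 476 for Plvap, and the blue points lie at 2.43 or below except for Tie1 (8.66) and Kdr (18.2). The open point is Flt1, which had 0 corneal reads and is drawn at the level of 3 reads.

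Transcripts of the junction genes came almost wholly from the limbus library. Pecam1, on chromosome 11 (chr11:106654217-106750628, minus strand, GRCm38), encodes an adhesion protein of the contacts between endothelial cells that platelets and leukocytes also carry. Its reads numbered 6 for cornea and 831 for limbus, a 148-fold difference (log2 ratio 7.21, interval 6.08 to 8.66). Cdh5 (chr8:104101625-104144511, plus strand) encodes VE-cadherin, the cadherin of endothelial junctions. The cornea gave 3 of its reads and the limbus 421 (ratio 150, log2 7.23, interval 5.67 to 9.51). The corneal level was therefore 0.676% of the limbal level for Pecam1 (interval 0.247 to 1.48) and 0.667% for Cdh5 (interval 0.137 to 1.96). The antisense gene Gm29682 overlaps Cdh5, and whether reads were counted by strand is not given in the sources used here.

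The receptors for VEGF differed from each other. Kdr (chr5:75932827-75978458, minus strand) encodes VEGF receptor 2, the main signaling receptor for VEGF-A on endothelial cells. Corneal RNA yielded 170 reads of it and limbal RNA 278, a 1.75-fold difference (log2 ratio 0.81, interval 0.52 to 1.09). Its corneal level was 57.2% of its limbal level (interval 47.0 to 69.5), the highest share among the 10 genes. Flt1 (chr5:147561604-147726011, minus strand) encodes VEGF receptor 1, which is also made as a secreted form that binds VEGF and is known from the cornea. Its reads numbered 0 for cornea and 225 for limbus. With the cornea set to 3 reads, the limbus was 80.1-fold higher (log2 ratio 6.32). The exact counting interval started lower, at 6.01, and had no upper limit. The interval of Kdr ended below that of Flt1. The table gives 1 value per gene, so the membrane and secreted forms of Flt1 were not separated, and 0 reads among 26112165 does not show that the transcript was absent.

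The 0 of Flt1 is a worked-back value. Its deposited mean could be written as 3 pairs of whole reads, in the cornea and the limbus respectively 0 and 225, 109 and 123, or 218 and 21. Only the pair of 0 and 225 met the other deposited columns, missing the deposited standard error by 1.7e-06 (log2 units) against 0.418 for the next. For Kdr, the mean allowed 4 pairs, and the next pair, 61 and 380 reads, missed by 0.0337 where the chosen one missed by 1.9e-06.

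The receptors of the angiopoietin system were also unequal. Tek (chr4:94739289-94874976, plus strand) encodes TIE2, the receptor that binds the angiopoietins. The cornea gave 2 of its reads and the limbus 178 (ratio 95.1, log2 6.57, interval 4.70 to 9.63). Tie1 (chr4:118471191-118490061, minus strand) encodes its partner receptor, for which no angiopoietin is an established direct ligand of its own. Corneal RNA yielded 44 reads of it and limbal RNA 519, a 12.6-fold difference (log2 ratio 3.66, interval 3.21 to 4.13). The intervals of Tek and Tie1 did not overlap. The corneal level of Tie1 was 7.93% of its limbal level (interval 5.69 to 10.8), and that of Tek 1.05% (interval 0.126 to 3.85).

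The 250 bases upstream of the transcription start of these 4 receptor genes are shown because the genes shared a direction but differed in ratio. Their log2 ratios ran from 0.81 for Kdr to 6.57 for Tek, with Flt1 at 6.32 when its cornea is set to 3 reads. The sequences are from RefSeq (GRCm38.p6), in the gene's own direction. Capitals mark only AGGAAG or its reverse complement CTTCCT, 1 form of the core that ETS factors bind, a family known for endothelial promoters. Other forms of the core were not searched, so a window without capitals may still hold one. The windows are chr5:147726012-147726261 (minus strand) for Flt1, chr5:75978456-75978705 (minus strand) for Kdr, chr4:94739039-94739288 (plus strand) for Tek and chr4:118489850-118490099 (minus strand) for Tie1.
Flt1: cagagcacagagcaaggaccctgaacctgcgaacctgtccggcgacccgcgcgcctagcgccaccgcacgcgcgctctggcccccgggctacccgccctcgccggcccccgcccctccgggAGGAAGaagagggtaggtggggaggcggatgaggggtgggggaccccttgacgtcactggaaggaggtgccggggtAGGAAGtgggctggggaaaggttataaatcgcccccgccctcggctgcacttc
Kdr: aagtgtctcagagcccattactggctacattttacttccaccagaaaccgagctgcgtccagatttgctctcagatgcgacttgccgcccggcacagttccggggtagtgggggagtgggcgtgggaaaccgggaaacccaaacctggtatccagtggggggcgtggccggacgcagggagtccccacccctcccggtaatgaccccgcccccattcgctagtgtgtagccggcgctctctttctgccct
Tek: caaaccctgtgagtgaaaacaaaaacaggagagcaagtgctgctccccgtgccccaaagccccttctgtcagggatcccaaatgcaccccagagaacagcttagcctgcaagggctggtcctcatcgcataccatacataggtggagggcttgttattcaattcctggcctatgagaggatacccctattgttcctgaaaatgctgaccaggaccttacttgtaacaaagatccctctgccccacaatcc
Tie1: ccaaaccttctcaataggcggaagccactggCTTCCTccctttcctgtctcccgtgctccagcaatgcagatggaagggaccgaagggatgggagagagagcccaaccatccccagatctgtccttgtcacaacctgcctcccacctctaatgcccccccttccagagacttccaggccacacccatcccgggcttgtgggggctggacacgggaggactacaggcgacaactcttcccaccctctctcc
Flt1 held the letters at 129 and 53 bases before its start and Tie1 at 219 bases before it, while the windows of Kdr and Tek held none. Searched on both strands, the letters occurred in 29.5% of 32851 promoter windows of that length. Windows were at hand for 6 of the 10 genes, 8 windows in all, of which 5 held the letters, from 4 genes (Flt1, Tie1, Emcn and Egfl7). The RefSeq starts used here differ from the GENCODE spans given above: 212 of the 250 bases of the Tie1 window and 3 of those of Kdr lie inside the gene as GENCODE draws it, as do 11 for Emcn and all 250 in each window of Egfl7. A match describes the sequence and is not evidence of binding.

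The other 4 genes serve permeability, the luminal surface, clotting and secretion. Plvap (chr8:71497765-71511752, minus strand) encodes the protein of the diaphragms that span fenestrae and caveolae. Its reads numbered 3 for cornea and 914 for limbus (ratio 326, log2 8.35, interval 6.80 to 10.63). Plvap had the largest ratio of the 10 genes, but its interval overlapped those of Emcn, Cdh5, Pecam1, Tek and Egfl7, and the ratio of Flt1 has no upper limit. It shares sequence on the opposite strand with Gtpbp3. Emcn (chr3:137341067-137432185, plus strand) encodes endomucin, a sialomucin of the vessel surface, most of all in veins and capillaries. The cornea gave 2 of its reads and the limbus 365 (ratio 195, log2 7.61, interval 5.74 to 10.66).

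Vwf (chr6:125546774-125686679, plus strand) encodes von Willebrand factor, which endothelial cells store in Weibel-Palade bodies and which megakaryocytes also make. Corneal RNA yielded 17 reads of it and limbal RNA 372, a 23.4-fold difference (log2 ratio 4.55, interval 3.85 to 5.34). Egfl7 (chr2:26580014-26593120, plus strand) encodes a secreted protein with EGF-like domains that endothelial cells lay down around growing vessels. Its reads numbered 9 for cornea and 513 for limbus, a 60.9-fold difference (log2 ratio 5.93, interval 4.99 to 7.07). Egfl7 overlaps 4 other annotated genes (Gm20532, Mir126a, Mir126b and Agpat2), of which Gm20532 and Mir126a lie on its own strand.

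Egfl7 is the host gene of an endothelial microRNA, miR-126, whose sequence is shown because it lies inside the gene (chr2:26591402-26591423, plus strand, RefSeq GRCm38.p6). The seed, bases 2 to 8, is in capitals.
mmu-miR-126a-3p: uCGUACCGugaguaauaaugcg
The row named Mir126 had 0 corneal and 3 limbal reads, too few for a fold, and libraries of fragmented total RNA are not made to capture mature microRNAs.

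**Figure D2:**
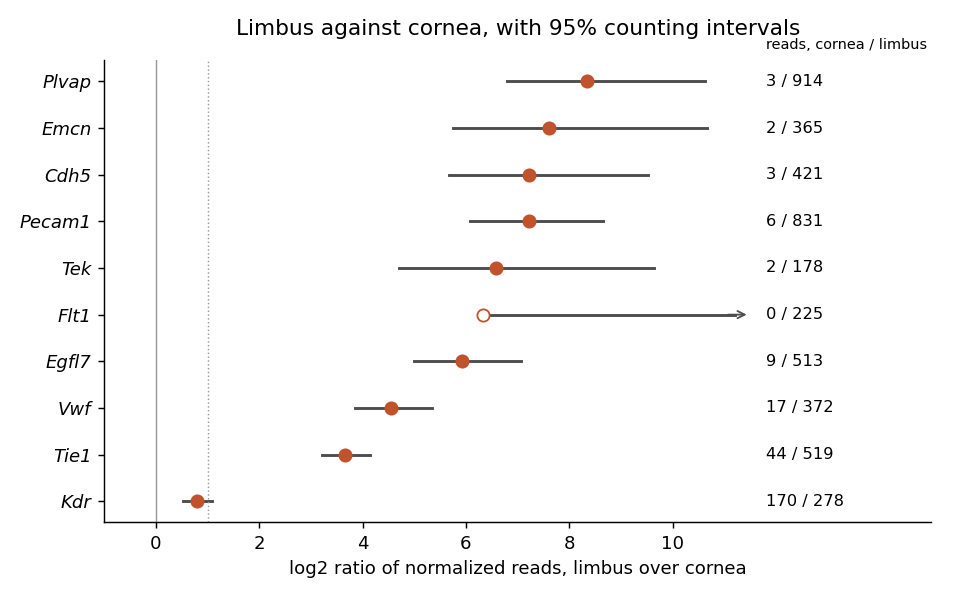
Log2 ratio of normalized reads, limbus over cornea, for each of the 10 genes, with bars for the exact 95% counting interval and the reads of both libraries at the right. The solid line marks equal levels and the dotted line 2-fold. Kdr is the lowest at 0.81 and Plvap the highest at 8.35. The open point for Flt1 stands at 6.32, with the cornea set to 3 reads, and the arrow marks no upper limit. Its bar is drawn from that point, although its exact interval starts at 6.01.

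Ranked by ratio, Kdr stood apart from the rest: its interval did not overlap that of Tie1, the next gene, whereas every other pair of neighbours in the order overlapped. Levels per kilobase of exon gave a different order in the limbus. Plvap was highest there at 476 normalized reads per kb, followed by Egfl7 (148), Pecam1 (138), Tie1 (109), Cdh5 (104), Emcn (69.8), Tek (39.1), Kdr (31.8), Vwf (23.9) and Flt1 (17.2). By exact Poisson intervals of the limbal reads, 3 pairs of neighbours overlapped, namely Egfl7 and Pecam1, Tie1 and Cdh5, and Tek and Kdr. An overlap does not show that the levels of a pair were equal. In the cornea, Kdr was highest at 18.2 and Tie1 next at 8.66, and their intervals (15.6 to 21.2 and 6.29 to 11.6) overlapped neither each other nor that of Egfl7. From Egfl7 downwards, all neighbours in the corneal order overlapped.

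Kdr therefore made up most of what the cornea library held of these transcripts. It gave 66.4% of the corneal reads of the 10 genes (interval 60.3 to 72.2) and 6.02% of the limbal reads (interval 5.35 to 6.75). The summed level was 19.3-fold higher in the limbus with all 10 genes (log2 ratio 4.27, interval 4.09 to 4.46). Without Kdr, a choice made after its value was seen, the other 9 genes had 86 corneal and 4338 limbal reads, and the sum was 53.9-fold higher (log2 ratio 5.75, interval 5.44 to 6.08). The side of the 2-fold line on which Kdr fell depended on the scaling: with the libraries scaled to their total reads, which raised every log2 ratio by 0.21, its log2 ratio was 1.01.

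The ligands of these receptors were higher in the limbus as well, with ratios below that of Tek and, for all but Vegfb, above that of Kdr. All 10 ligand and co-receptor genes in the table exceeded their corneal level by more than counting error, against 35.5% of all genes with a ratio. At least 2-fold higher were 9, against 21.7% of all genes. The median log2 ratio was 2.01, with the cornea of Angpt4 set to 3 reads. Vegfa, the main ligand of Kdr, had 193 corneal and 510 limbal reads (log2 ratio 1.50, interval 1.26 to 1.74). Vegfb, a ligand of Flt1 but not of Kdr, was the closest to equal, with 305 and 369 reads (0.37, interval 0.15 to 0.59). Pgf, placental growth factor and another ligand of Flt1, had 1 and 50 reads (5.74, interval 3.20 to 11.07), and its interval overlapped that of Tek. The ligands known mainly from lymphatic growth had 19 and 88 reads (Vegfc, 2.31, interval 1.58 to 3.11) and 15 and 63 reads (Vegfd, listed as Figf, 2.17, interval 1.34 to 3.09).

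Among the angiopoietins, Angpt1, the activating ligand of TIE2, had 11 corneal and 71 limbal reads (log2 ratio 2.79, interval 1.86 to 3.85). Angpt2, which endothelial cells release and which can oppose Angpt1, had 49 and 159 reads (1.79, interval 1.32 to 2.29). Angpt4 had 0 and 15 reads (2.42 with the cornea set to 3 reads, interval from 1.94). The co-receptors Nrp1 and Nrp2, which bind VEGF and semaphorins and occur outside vessels as well, had 218 and 482 reads (1.24, interval 1.01 to 1.48) and 100 and 337 reads (1.85, interval 1.52 to 2.19). Flt1 and Tek thus had at most 2 corneal reads each in a library with 193 reads of Vegfa and 11 of Angpt1. The same library held 170 reads of Kdr, the other receptor of Vegfa in the set, and 44 of Tie1.

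A wider list of 57 genes known from blood endothelium, 56 of them in the table and 55 with enough reads for a ratio, gave the setting for the 10 markers. Angpt2 belongs to this list and to the ligands above. At least 2-fold higher levels in the limbus were found for 47 of the 55, against 21.7% of all genes. None was 2-fold higher in the cornea, where 9.21% of all genes were. Counting error was exceeded by 50 genes towards the limbus and 2 towards the cornea, against 35.5% and 36.7% of all genes, and 3 lay within it. The median log2 ratio was 3.75, with 12 genes at 0 corneal reads entered at their bounds. The list summed to 6971 corneal and 16355 limbal reads, a lower log2 ratio of 1.33 (interval 1.29 to 1.37). Genes with many reads weigh most in that sum. At most 3 corneal reads were found for 22 of the 55, against 9.11% of all genes.

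The 6 genes of that list with the highest ratios are given next, leaving out genes whose mean was under 10 normalized reads. Genes with 0 corneal reads were placed in that order with the cornea set to 3 reads. Mmrn2, with 0 and 300 reads, then stood at 6.74 (interval from 6.43). That interval has no upper limit, so Mmrn2 may lie higher than its place after Sema3g. Ptprb, the phosphatase that acts on TIE2 and VE-cadherin, had 1 corneal and 353 limbal reads (8.56, interval 6.07 to 13.87). Robo4, an endothelial roundabout receptor, had 1 and 326 reads (8.44, interval 5.96 to 13.75), and Esam, a junctional adhesion protein, 1 and 250 (8.06, interval 5.57 to 13.37). Sox18, a transcription factor of vascular development, had 1 and 198 reads (7.73, interval 5.23 to 13.04). Cldn5, the claudin of endothelial tight junctions, had 4 and 439 reads (6.87, interval 5.51 to 8.76), and Sema3g, an arterial semaphorin, 1 and 102 (6.77, interval 4.26 to 12.09).

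By role, the medians were 4.97 for 15 junction and surface genes, 4.07 for 7 arterial genes, 3.79 for 13 signaling genes, 3.75 for 9 venous and capillary genes, 3.09 for 8 transcription factors and 1.79 for 3 tip cell genes. Nr2f2, a transcription factor of venous identity that is also made by stromal cells, had 1794 corneal and 1385 limbal reads (−0.28, interval −0.38 to −0.18). Vcam1, a leukocyte adhesion protein of activated endothelium and of other cells, had 274 and 196 reads (−0.39, interval −0.66 to −0.12). With scaling to total reads both stayed below 0, at −0.07 and −0.18, but their intervals then reached above it (0.03 and 0.09). These were the 2 genes of the list with more normalized reads in the cornea. The 3 genes within counting error, named after their values were seen, were Sox7, a transcription factor, with 706 and 686 reads (0.05, interval −0.10 to 0.21), Efnb2, an arterial ephrin, with 1727 and 1682 (0.06, interval −0.04 to 0.16), and Calcrl, the receptor of adrenomedullin, with 112 and 121 (0.21, interval −0.18 to 0.59). Scaled to total reads, all 3 were higher in limbus beyond counting error, at 0.26, 0.26 and 0.41.

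**Figure D3:**
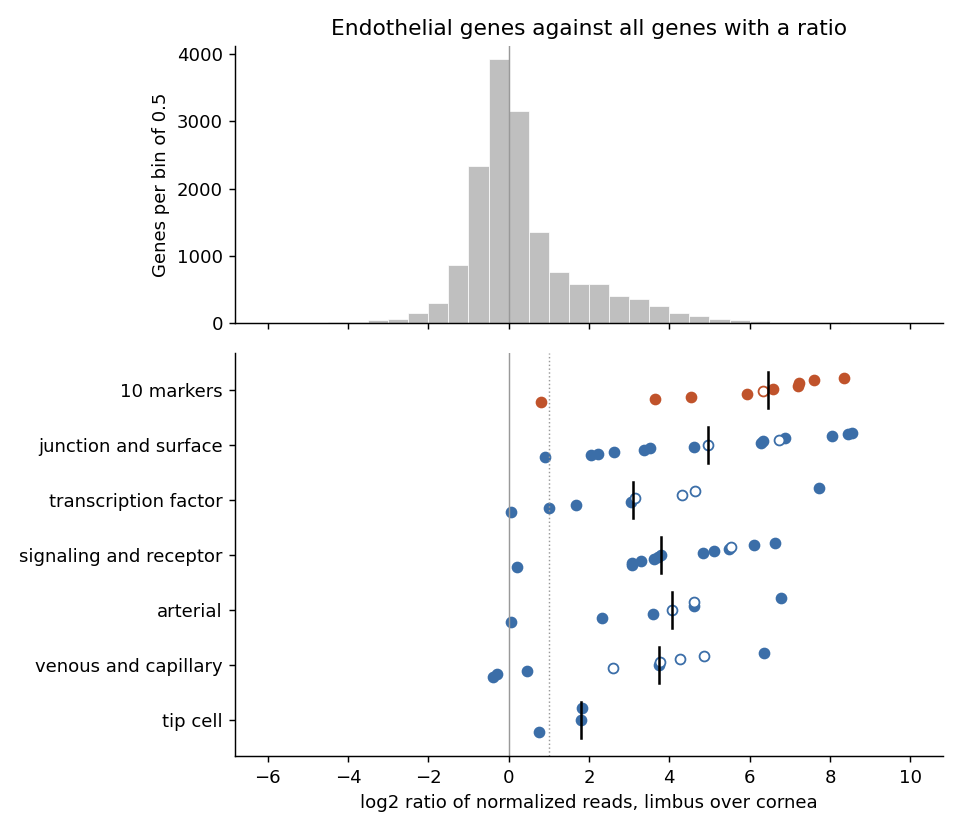
Top, histogram of the log2 ratio (limbus over cornea) of all 15572 genes with a ratio, in bins of 0.5. Bottom, the 10 markers (orange) and 55 other blood endothelial genes by role (blue), 1 point per gene, open where the cornea had 0 reads and the point is a lower bound, with black bars for medians; the markers lie between 0.81 and 8.35 and the other genes between −0.39 and 8.56.

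Markers of other cell types also differed between the libraries, and their part in the endothelial ratios was not tested. For the counts that follow, 21.7% of all genes with a ratio were at least 2-fold higher in the limbus. Among mural cell genes, those of pericytes and vascular smooth muscle, 11 of 12 were at least 2-fold higher in the limbus (median log2 ratio 4.24), and the list summed to 6149 corneal and 6911 limbal reads, with Rgs5 at 5 and 348 reads, Acta2 at 40 and 730, and Des at 0 and 305. The twelfth, Notch3, was higher in the cornea, with 5755 and 3349 reads. Lymphatic endothelial genes, some of which blood endothelium shares, were at least 2-fold higher in the limbus for 5 of 6 (median 4.31, sums of 2349 and 3730 reads). Lyve1 had 7 and 121 reads, Prox1 had 1 and 23, and Pdpn, which is also made outside lymphatics, was near equal with 2304 and 2911. Of 8 leukocyte genes 6 were at least 2-fold higher in the limbus (median 2.86, sums of 7007 and 14575), with Ptprc, the pan-leukocyte marker, at 30 and 72 reads. Itgam alone gave 6003 and 8793 of the summed reads (log2 ratio 0.65).

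Genes of circulating blood cells gave smaller ratios or too few reads for one. Of 7 platelet and megakaryocyte genes, Gp1ba, Gp9 and Gp5 had 0 corneal reads and 1 limbal read each. Itga2b had 187 and 353 reads (1.01, interval 0.75 to 1.28) and Gp1bb 173 and 178 (0.14, interval −0.17 to 0.45). Pf4, a platelet chemokine, had 12 and 73 reads, and the list summed to 374 and 612 (median 1.22 over 4 genes with a ratio). Of 5 red cell genes in the table, which summed to 100 and 104 reads, Hba-a1, Hba-a2 and Slc4a1 were listed at 0; Hba-a1 and Hba-a2 are near-identical copies whose reads counting may split or drop. Genes of other tissue differed too. All 6 skeletal muscle genes were at least 2-fold higher in the limbus (median 7.92, with 89 corneal and 10052 limbal reads together). So were 4 of 5 conjunctival epithelial genes, all 4 of them keratins (median 3.52, sums of 101654 and 302540). Muc5ac, also in the conjunctival list, had 1 corneal and 1 limbal read, too few for a ratio. Corneal endothelial genes had a lower median of 1.53 (sums of 9049 and 12046), with 4 of 7 at least 2-fold higher in the limbus. Alcam alone gave 6162 and 4781 of the summed reads and was higher in the cornea (log2 ratio −0.27). Keratocyte and corneal epithelial genes had medians of 0.31 and −0.69, with sums of 72734 and 88278 reads and of 2632714 and 1394995. Both medians cover genes that went opposite ways. Of 6 keratocyte genes, Ptgds (log2 ratio 3.49) and Col1a1 (1.25) leaned to the limbus by at least 2-fold. Kera (−2.99) and Aldh1a1 (−2.16) leaned as far to the cornea. Of 7 corneal epithelial genes, Krt15 (3.32) and Krt14 (2.52) leaned to the limbus by at least 2-fold. Krt12 (−2.19), Tkt (−1.62) and Aldh3a1 (−1.22) leaned as far to the cornea. The remaining genes of both lists differed by less than 2-fold.

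**Figure D4:**
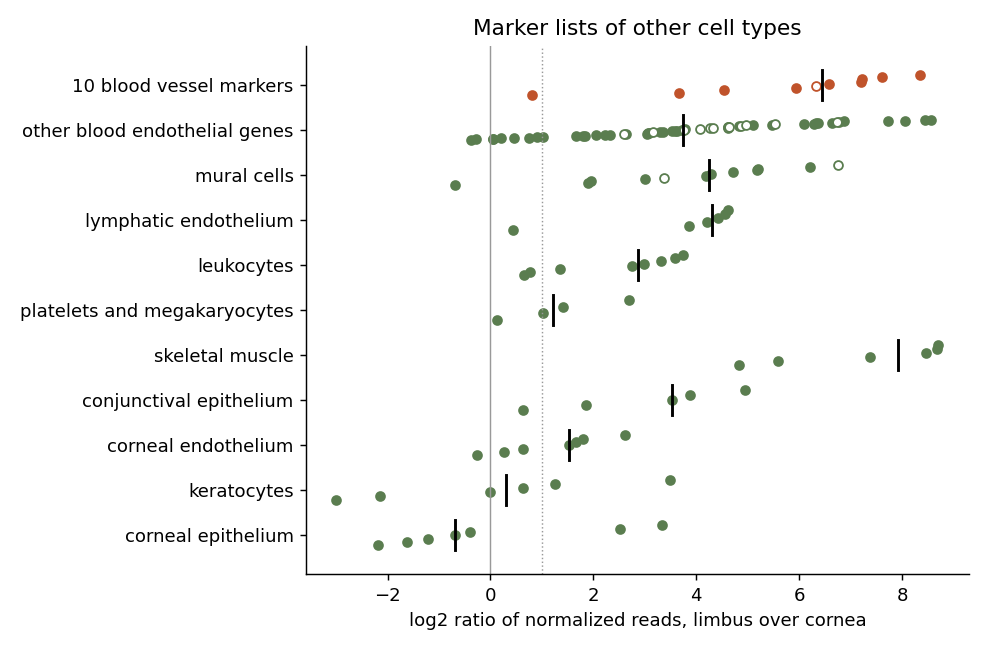
Log2 ratio of normalized reads, limbus over cornea, for the genes of each marker list, 1 point per gene, open where the cornea had 0 reads, with black bars for medians. The 10 blood vessel markers (orange, median 6.45) lie to the right of most lists, skeletal muscle lies further right (7.92) and corneal epithelium is the list with a median below 0 (−0.69).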

How the data were processed

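The authors dissected limbal rims and corneal buttons, pooled them by tissue and made stranded total RNA libraries (QIAseq kit), which an Illumina NextSeq read from both ends. Per the paper's methods, CLC Genomics Workbench 20 was used for adaptor trimming, mapping to GRCm38 (mm10) and normalization by trimmed mean of M-values. A single table was deposited by the authors with, per gene, a mean normalized signal over the libraries. The log2 fold change and its standard error, and the p-value and adjusted p-value that the authors deposited, hold their own comparison and are not printed. The deposited table is named after a count-based differential expression tool that the paper's methods do not mention; that tool's version and settings, and whether counting used strand, are not given in the sources used here.

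Of 40904 rows, 17484 name no gene and stayed out. Of the 23420 others, 5978 have a mean of 0 and 17442 have means that can be built from the reads of 2 libraries, where 109 corneal reads weigh as much as 102 limbal ones. The mean alone fixed the reads of both libraries for 6143 genes. For the other 11299, including all 10 markers, the pair was chosen that best met the deposited fold change and standard error under a shrinkage model fitted to the table; 748 of them needed the dispersion of similar genes and 31 were placed by the nearest ratio. For the markers, the means allowed 2 to 9 pairs, the chosen pairs missed the standard error by at most 1.9e-06 on the log2 scale, and the next pair missed by at least 0.0337. Tested on simulated data for the limbus against cornea comparison, 5891 of 5892 read pairs were found exactly. Whether that share holds for the 10 markers, none of which the mean alone fixes, was not tested. Reads are therefore derived values, not a count table, and no replicate test was possible.

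Ratios compare reads divided by size factors (1.0337 for the cornea and 0.9674 for the limbus). A library at 0 reads was set to 3 reads per library and its ratio called a bound. This bound leaves out counting error, so the exact interval can start below it. No ratio was given where both libraries had 3 or fewer. Intervals are Clopper-Pearson intervals at 95% of the limbal share of reads, and Poisson intervals for levels. Exon lengths and positions are from GENCODE M21 (GRCm38). The accession column of the table matched the gene symbol for 2 of 18556 accessions with a RefSeq symbol and was not used. The members and lists were chosen with earlier results of these data known. Named were all 10 markers, all ligands and co-receptors, the 6 highest of the wider endothelial list with a mean of at least 10, and its genes with more normalized reads in the cornea. Markers of other cell types were named where they bear on a marker or on how a list reads. Alternatives were 3 scalings, a pseudocount of 1, filters on the mean (10 and 50), and genes fixed by the mean alone. Python 3.11.15, numpy 2.4.6, scipy 1.17.1, pandas 2.3.3 and matplotlib 3.10.9 were used.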

Additional observations from a re-analysis of the deposited data

How the results depend on the processing

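Of 99 alternative values, 28 could not move, since every marker passes both filters on the mean. Of the other 71, 67 moved by less than their counting interval or, for counts, stayed within 1.5 times. The 4 that moved further kept their direction. All 40 values of single markers were among the 67. Each of the 3 scalings shifts all markers by 1 amount, at most 0.21, which lies inside every marker's interval. Their single-marker values are therefore not separate checks. The count beyond counting error under the pseudocount used unchanged intervals and could not move either. The summed log2 ratio of the 10 markers was 4.47 with scaling to total reads and 5.75 without Kdr, a choice made after seeing the data, against 4.27. Of the wider endothelial list, 29 of 36 genes with a mean of at least 50, and 18 of 19 genes whose reads the mean alone fixes, were at least 2-fold higher in the limbus, against 47 of 55; both counts are lower because fewer genes enter. The latter gave no value for the markers, since the mean alone fixes none of them. Scaling to total reads, to total reads without the 13 genes among the 10 most-read of either library, and by the trimmed mean of M-values raised all log2 ratios by 0.21, 0.13 and 0.02. Depth limits the genes with at most 3 corneal reads: their ratios have intervals spanning several log2 units and their order is not resolved. No paired analysis was possible because the numbered samples have no values of their own in the table, and for the same reason no replicate could be left out.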
